A study of Mus musculus with 17 samples.

Results

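The subunits of GPI-N-acetylglucosaminyltransferase (GPI-GnT), the enzyme that starts the synthesis of glycosylphosphatidylinositol (GPI) anchors, were followed in sorted mouse bone marrow cells. The members were 7 genes, Piga, Pigc, Pigh, Pigp, Pigq, Pigy and Dpm2, and every probe set whose single gene symbol in the platform annotation was one of them was taken. This gave 15 of the 45037 probe sets that are not controls. Piga, Pigc and Pigh had 2 each, Pigq had 7, Pigp and Dpm2 had 1 each, and Pigy had 0, so 6 genes were measured of the 18193 with such a probe set on the array. Probe sets of a gene are named here by their mean deposited value over the 17 arrays, as its brighter or dimmer ones. A filter on dim signal kept 13 of the 15, and it left out 1 probe set of Pigh and 1 of Pigq.

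The 17 arrays formed 5 groups, which were compared only within a batch. Batch 1 held GPI- and GPI+ cells sorted from marrow of Pig-a knock-out mice, with 3 arrays each, called knock-out GPI- and knock-out GPI+ here. Batch 2 held GPI- cells of C57BL/6 mice that had received enriched marrow cells from the Pig-a knock-out (knock-out graft GPI-, 4 arrays), GPI+ cells of C57BL/6 mice that had received wild-type marrow cells (wild-type graft GPI+, 3 arrays) and GPI+ cells of untransplanted C57BL/6 mice (wild type GPI+, 4 arrays). The protocols give aerolysin at 10 nM for 30 minutes, a toxin that kills cells with GPI-anchored proteins, and irradiation at 9 Gy for the transplantation of GPI-deficient cells. For the recipients of wild-type marrow neither is stated. In batch 2 the donor genotype, the graft's preparation and GPI status therefore cannot be told apart. Cells were sorted with antibodies to CD24, CD48 and Gr-1. The labels do not state the design of the knock-out allele, any Cre driver, or the age and number of animals. The p-values therefore rest on the spread among arrays that are called biological replicates.

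A GPI anchor is a glycolipid that holds proteins on the outer face of the plasma membrane. Its assembly begins on the cytoplasmic side of the endoplasmic reticulum, where GPI-GnT moves N-acetylglucosamine from UDP-N-acetylglucosamine to phosphatidylinositol. In mammalian cells Piga carries the catalytic domain, Pigc, Pigh, Pigp, Pigq and Pigy are further subunits, and Dpm2 is a regulatory subunit that also belongs to dolichol-phosphate-mannose synthase. Piga lies on the X chromosome, and blood stem cells that acquire a PIGA mutation give rise to the GPI-negative blood cells of paroxysmal nocturnal haemoglobinuria in humans.

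The values are log10-like signals that flatten towards 0. The level that 40% of probe sets on an array do not reach, used as the limit of the filter, was 0.42 in batch 1 and 0.31 in batch 2. Ptprc, the pan-leukocyte gene CD45, lay above the 99th percentile in each group on average, and of the sort antigens Cd24a and Cd48 had a probe set with 1 symbol and both lay above the 94th percentile. Other measures moved with the groups. The mean of 11 T and natural killer (NK) cell genes of 12 listed was 5.53 to 5.62 log2 in knock-out GPI- cells, against 1.86 to 1.97 in knock-out GPI+ cells, and 3.32 to 4.47 in knock-out graft GPI- cells, against 1.77 to 2.14 in wild-type graft GPI+ and 2.0 to 2.43 in wild type GPI+ cells. The mean of the B cell genes was 5.16 to 5.60 in knock-out GPI- cells, against 4.59 to 4.66 in knock-out GPI+ cells, and overlapped between groups in batch 2. Among them Ms4a1 was not higher in knock-out GPI- cells, at a mean deposited value of 1.66 against 1.71. The mean of the neutrophil genes was 8.69 to 8.82 in knock-out GPI- cells, against 9.75 to 9.79 in knock-out GPI+ cells, and overlapped between groups in batch 2. The mean of the cell cycle genes was 6.06 to 6.70 in knock-out GPI- cells, against 6.87 to 6.90 in knock-out GPI+ cells, and 6.29 to 6.53 in knock-out graft GPI- cells, against 7.15 to 7.31 in wild-type graft GPI+ and 7.08 to 7.29 in wild type GPI+ cells. In batch 1 the mean of 18 hybridisation control probe sets was 8.28 ± 0.34 log2 (SD, n = 3) in knock-out GPI- and 6.31 ± 0.25 in knock-out GPI+ samples, and the Gapdh signal at the 3' end minus that at the 5' end was -0.16 ± 0.13 in knock-out GPI- and -1.02 ± 0.02 in knock-out GPI+ samples. In batch 2 the control mean was 6.77 ± 0.20 in knock-out graft GPI- (n = 4), 6.73 ± 0.15 in wild-type graft GPI+ (n = 3) and 6.37 ± 0.39 in wild type GPI+ samples (n = 4). The Gapdh measure was -0.68 ± 0.30 in knock-out graft GPI-, -0.63 ± 0.22 in wild-type graft GPI+ and -0.93 ± 0.05 in wild type GPI+ samples. In sorted bulk samples fewer cells of a type and less RNA per cell cannot be told apart. The part of these measures in the results below was not tested.

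Piga, the targeted gene, was the member with the clearest change, and it was low on each of the 7 GPI- arrays. On its brighter probe set the deposited values were 0.59, 0.66 and 0.58 in knock-out GPI- cells, against 1.20, 1.15 and 1.32 in knock-out GPI+ cells. They were 0.047, 0.039, 0.23 and 0.12 in knock-out graft GPI- cells, against 1.20, 1.23 and 1.16 in wild-type graft GPI+ cells and 1.18, 1.21, 1.25 and 1.24 in wild type GPI+ cells. No GPI- array overlapped with a GPI+ array of its batch, and the 7 GPI+ arrays of batch 2 lay together. The log2 difference in limma's fit was -2.04 ± 0.16 (SE) in knock-out marrow (adjusted p = 6.09e-09), -3.62 ± 0.15 between the grafts (adjusted p = 2.51e-12) and -3.69 ± 0.14 against wild type (adjusted p = 3.41e-13). The last 2 comparisons share the knock-out graft arrays and are not independent. An exact two-sided permutation test of the group means gave p = 0.1 in knock-out marrow, the smallest that 3 arrays against 3 allow, and p = 0.0286 in both other comparisons, which is the smallest there.

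**Figure D1:**
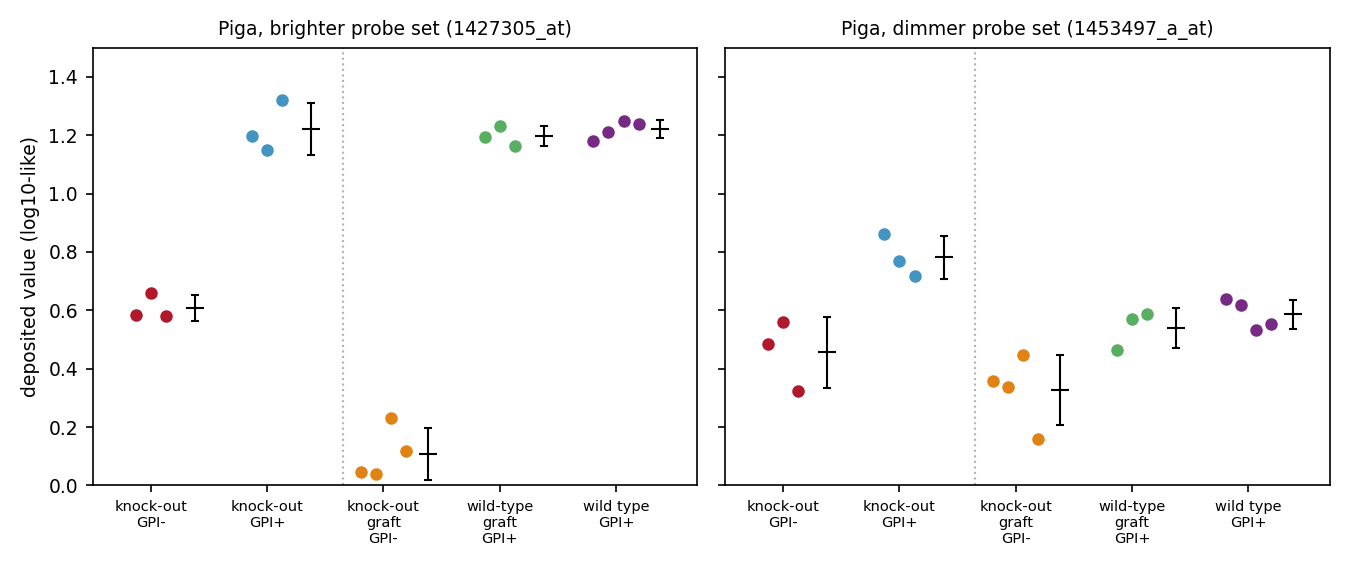
Piga signal on the 17 arrays for both probe sets. The y axis is the deposited log10-like value, each point is 1 array, the black bar is the group mean with its SD, and the dotted line separates batch 1 from batch 2. On the brighter probe set the GPI- arrays lie at 0.58 to 0.66 in knock-out marrow and at 0.039 to 0.23 in knock-out grafts, below the GPI+ arrays at 1.15 to 1.32.

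All 4 knock-out graft GPI- arrays were below the filter's limit on this probe set, where the scale carries no reliable level. With these arrays set at the limit, Piga was at least 7.70-fold lower in knock-out graft GPI- than in wild-type graft GPI+ cells and at least 8.11-fold lower than in wild type GPI+ cells. In knock-out GPI- cells the signal stayed above the limit on the 3 arrays, at the 55.1st to 60.3rd percentile of the array. The drop in knock-out marrow was smaller than the drop between the grafts by 1.58 ± 0.22 log2 (limma adjusted p = 8.10e-05), in a comparison of the 2 differences that share no array. Because the batches were normalized apart and the graft values lie at the floor, this size is approximate.

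The dimmer Piga probe set was also lower in GPI- cells. Its values were 0.48, 0.56 and 0.32 in knock-out GPI- cells, against 0.86, 0.77 and 0.72 in knock-out GPI+ cells. In batch 2 they were 0.36, 0.34, 0.45 and 0.16 in knock-out graft GPI- cells, against 0.46, 0.57 and 0.59 in wild-type graft GPI+ cells and 0.64, 0.62, 0.53 and 0.55 in wild type GPI+ cells. The groups did not overlap, although replicate 3 of the knock-out graft, at 0.45, came close to replicate 1 of the wild-type graft, at 0.46. The log2 differences were -1.09 ± 0.21 (limma adjusted p = 6.48e-04), -0.71 ± 0.20 (adjusted p = 0.0462) and -0.86 ± 0.19 (adjusted p = 0.00449). The call between the grafts was lost without replicate 1, 2 or 4 of the knock-out graft or without replicate 2 or 3 of the wild-type graft (adjusted p = 0.0526 to 0.185). Here the 2 differences did not differ detectably from each other (-0.37 ± 0.29, adjusted p = 0.444). Over the 11 arrays of batch 2 the brighter probe set correlated with the cell cycle mean at 0.97 and with the T and NK cell mean at -0.96, and over the 6 of batch 1 at 0.84 and -0.99, in groups that separate on each measure. Which exons either probe set covers was not known here.

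Piga showed no detectable difference between the GPI+ groups of batch 2. Between wild-type graft GPI+ and wild type GPI+ cells the log2 difference was -0.07 with a 95% confidence interval of -0.39 to 0.24 on the brighter probe set (limma adjusted p = 0.90), and -0.15 (-0.57 to 0.26) on the dimmer one (adjusted p = 0.83).

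The promoter windows of Piga and of Pigq are shown for comparison, since their signals followed different patterns. Pigq was the other member called lower in knock-out graft GPI- than in wild type GPI+ cells, with no call between the grafts. Both windows are RefSeq sequences of build GRCm38.p6, from 250 bases before the annotated start to 50 after it. The Piga window is at chrX:164419530-164419829 on the plus strand and the Pigq window at chr17:25941940-25942239 on the minus strand. Capitals mark matches on either strand to the CCAAT box, to GGGCGG (a GC box), to the TATAAA box or to CACCC, or to AGATAA, the last being a core of GATA-factor sites in erythroid genes.
Piga: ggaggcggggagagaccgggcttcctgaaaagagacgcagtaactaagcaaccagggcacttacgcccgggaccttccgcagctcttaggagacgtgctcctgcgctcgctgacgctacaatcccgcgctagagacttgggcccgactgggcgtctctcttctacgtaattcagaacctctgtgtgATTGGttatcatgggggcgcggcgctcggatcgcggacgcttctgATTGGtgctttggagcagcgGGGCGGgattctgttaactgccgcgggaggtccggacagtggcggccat
Pigq: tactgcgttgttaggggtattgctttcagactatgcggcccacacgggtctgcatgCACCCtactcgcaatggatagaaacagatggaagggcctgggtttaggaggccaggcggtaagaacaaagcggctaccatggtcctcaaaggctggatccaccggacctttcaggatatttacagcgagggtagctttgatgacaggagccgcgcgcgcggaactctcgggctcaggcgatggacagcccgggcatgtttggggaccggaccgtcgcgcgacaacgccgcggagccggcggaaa
The Piga window held 2 CCAAT matches, both on the reverse strand, and 1 GGGCGG match, which 37.4% and 35.7% of 32851 promoter windows of the same length hold at least once. The Pigq window held 1 CACCC match, which 57.5% of windows hold, and no CCAAT box, no GC box and no AGATAA, the last found in 11.2% of windows. No match overlapped another. The GC content was 61.3% for Piga and 59.7% for Pigq, against a median of 52.7%. Of the 6 measured members all had at least 1 window, and only that of Pigh held TATAAA, as 13.6% of windows do. A match is a string of letters and not a shown site.

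Across the 13 tested probe sets of the complex, 4 passed at an adjusted p under 0.05 in knock-out marrow, 2 higher and 2 lower in knock-out GPI- cells. Over all 32426 tested probe sets 25.4% passed there, 12% higher and 13.4% lower. Between the grafts 2 of 13 passed, both lower and both of Piga, against 4.1% of all probe sets, 2.34% higher and 1.76% lower. Against wild type 7 of 13 were lower in knock-out graft GPI- cells and 0 higher, where 8.16% of all probe sets passed, 4.2% higher and 3.97% lower. These were 2 probe sets of Piga and 5 of Pigq, which are not independent of each other. Between wild-type graft GPI+ and wild type GPI+ cells 0 of 13 passed with limma, where 0.617% of all probe sets passed, 0.299% higher and 0.318% lower. At an unadjusted p under 0.05 there were 6 there, all of Pigq or Pigc. The share of all probe sets at that looser threshold was not taken, so this count has nothing to be set against. The median log2 difference of the 13 was 0.03, -0.37, -0.86 and -0.25 in these comparisons, and that of all probe sets was within 0.03 of 0 in each. The member shares with Piga left out were 2 of 11 in knock-out marrow and 0 of 11 between the grafts.

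**Figure D2:**
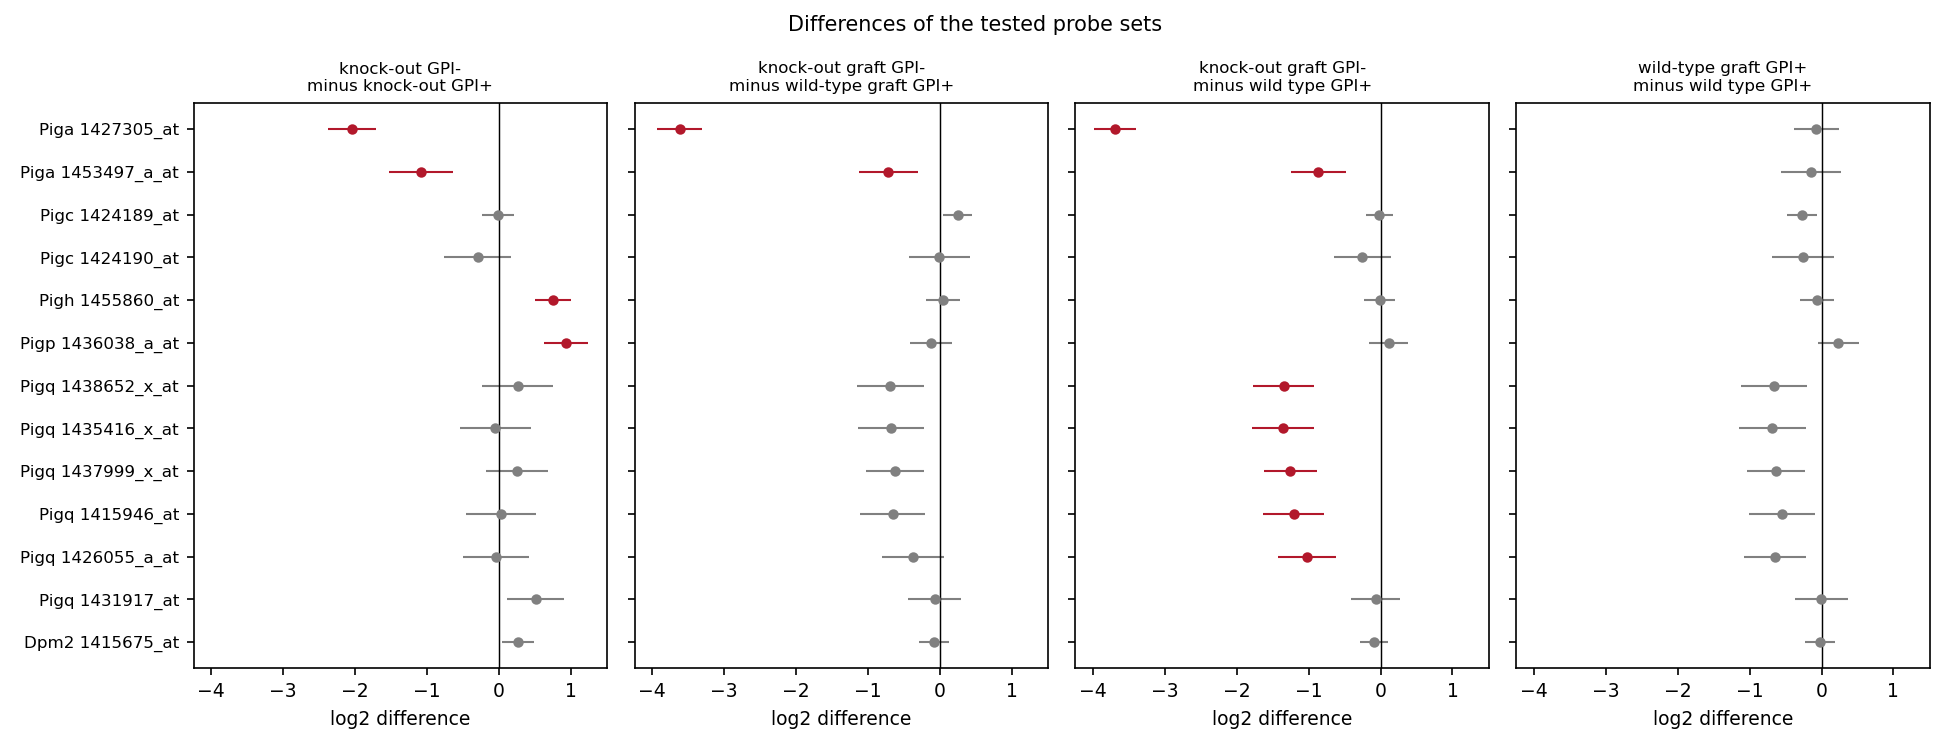
Log2 differences of the 13 tested probe sets in the 4 comparisons. Points are the estimates of limma's fit, bars are 95% confidence intervals, and red marks an adjusted p under 0.05. Piga is lower in the 3 comparisons with GPI- cells, Pigh and Pigp are higher in knock-out marrow, and 5 of the 6 Pigq probe sets shown are lower in knock-out graft GPI- than in wild type GPI+ cells.

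Pigh and Pigp, subunits that associate with the catalytic Piga protein in the complex, were higher in knock-out GPI- cells. Pigh, on its brighter probe set, had values of 0.95, 0.91 and 1.02 in knock-out GPI- cells, against 0.78, 0.67 and 0.75 in knock-out GPI+ cells. Pigp, on its 1 probe set, had values of 1.19, 1.28 and 1.24 in knock-out GPI- cells, against 1.01, 0.95 and 0.90 in knock-out GPI+ cells. For both genes the 3 GPI- arrays lay above the 3 GPI+ arrays. Pigh rose by 0.75 ± 0.12 log2, or 1.69-fold (limma adjusted p = 8.40e-05), and Pigp by 0.93 ± 0.15, or 1.91-fold (adjusted p = 7.47e-05).

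Neither gene showed this in the grafts. Pigh had 0.82, 0.85, 0.78 and 0.80 in knock-out graft GPI- cells, against 0.82, 0.78 and 0.80 in wild-type graft GPI+ cells and 0.85, 0.80, 0.81 and 0.81 in wild type GPI+ cells. Its difference between the grafts was 0.04, with a 95% confidence interval of -0.19 to 0.28 (limma adjusted p = 0.917). Pigp had 0.96, 0.90, 0.82 and 0.80 in knock-out graft GPI- cells, against 0.89, 0.94 and 0.88 in wild-type graft GPI+ cells and 0.87, 0.88, 0.76 and 0.83 in wild type GPI+ cells. Its difference between the grafts was -0.12 (-0.41 to 0.17, adjusted p = 0.772). The batch 2 groups overlapped for both genes, except that the wild-type graft arrays lay just above the wild type arrays for Pigp, without passing the test.

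The differences themselves differed. The change in knock-out marrow minus the change between the grafts was 0.71 ± 0.17 for Pigh (limma adjusted p = 0.00594) and 1.06 ± 0.20 for Pigp (adjusted p = 0.00133), where 15% of all tested probe sets passed. Counting the 3 knock-out GPI+ arrays as 1 sample left Pigh at an adjusted p of 0.0604. These arrays lay close together, with a median SD of 0.072 log2 over the brighter probe sets, against 0.19 in knock-out GPI- cells. Over the 6 arrays of batch 1 the correlation with the T and NK cell mean was 0.93 for Pigh and 0.96 for Pigp, and that with the neutrophil mean was -0.93 and -0.96, in groups that separate on each measure. Over the 11 arrays of batch 2 the correlation with the T and NK cell mean was 0.33 for Pigh and 0.20 for Pigp. That with the neutrophil mean was -0.54 and -0.47 there. The part of these cell types in the Pigh and Pigp signals was not tested. The other Pigh probe set was dim, at 0.051 to 0.31 in knock-out GPI- and 0.20 to 0.37 in knock-out GPI+ cells, and was not tested.

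**Figure D3:**
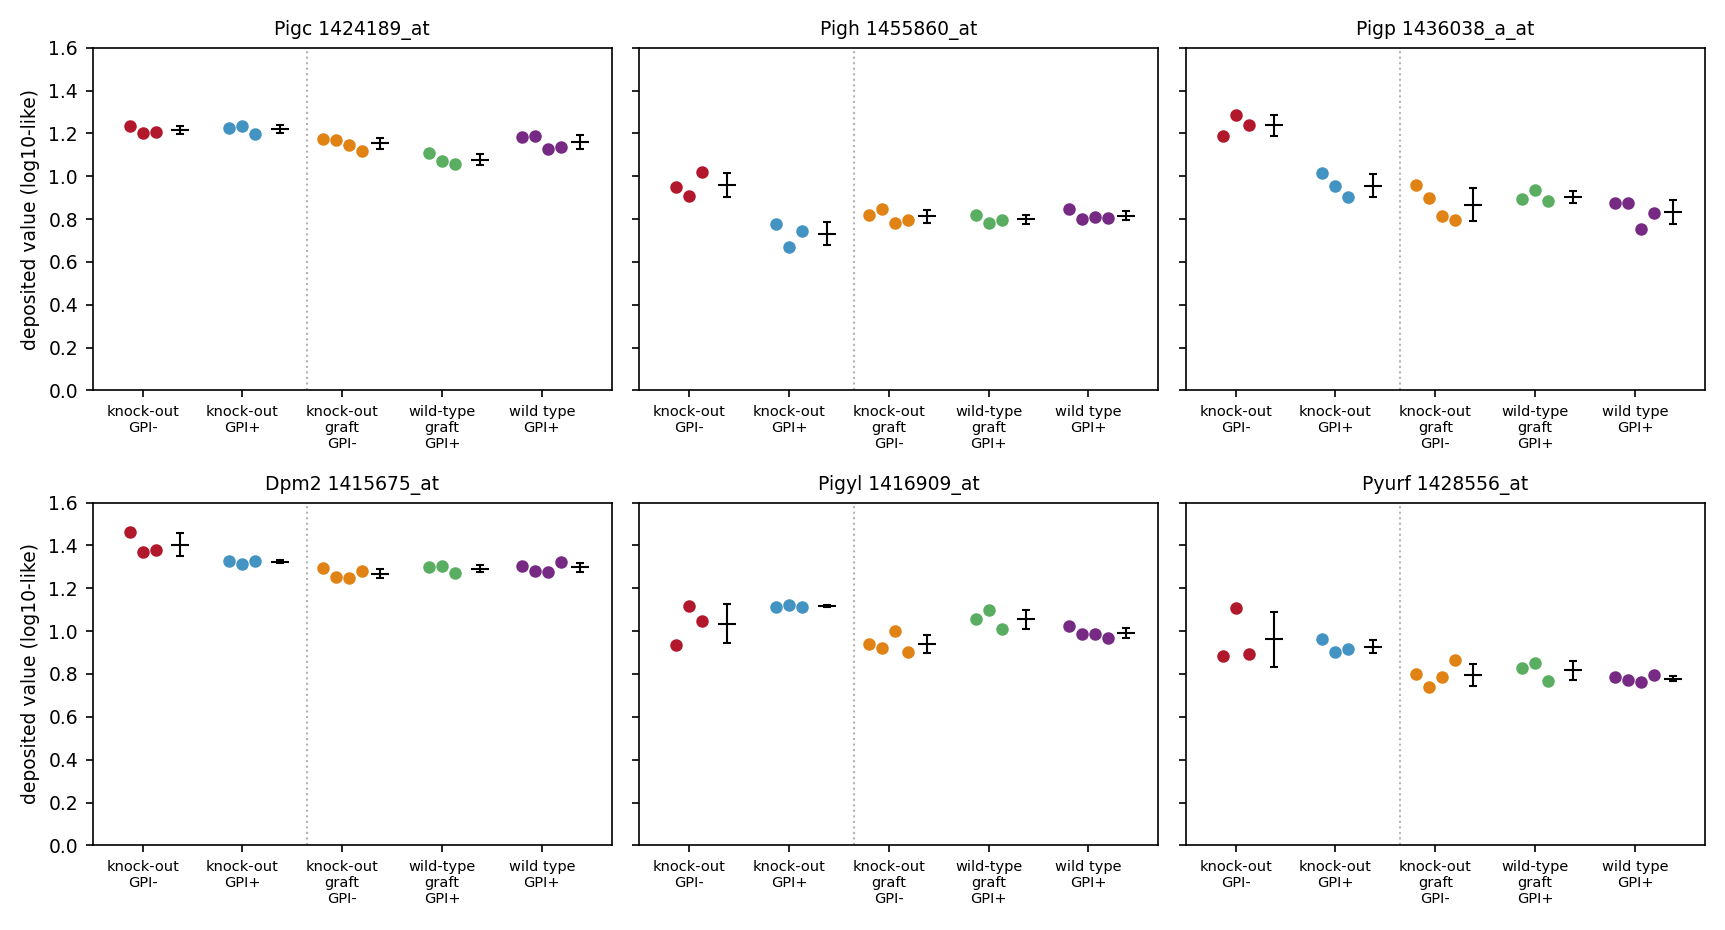
Deposited values of Pigc, Pigh, Pigp and Dpm2 and of the related probe sets of Pigyl and Pyurf on the 17 arrays. The y axis is log10-like, points are arrays, black bars are group means with SD, and the dotted line separates the batches. Pigh and Pigp stand higher in knock-out GPI- than in knock-out GPI+ cells, at 0.91 to 1.02 and 1.19 to 1.28. In their panels the batch 2 groups overlap, except that the wild-type graft arrays lie just above the wild type arrays for Pigp. The batches were normalized apart, so their levels are not compared.

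Pigc, a multi-pass membrane subunit, was level in knock-out marrow. On its brighter probe set it had 1.24, 1.20 and 1.21 in knock-out GPI- cells, against 1.23, 1.23 and 1.20 in knock-out GPI+ cells, a log2 difference of -0.01 with a 95% confidence interval of -0.23 to 0.21 (limma adjusted p = 0.944). In batch 2 it had 1.17, 1.17, 1.15 and 1.12 in knock-out graft GPI- cells, against 1.11, 1.07 and 1.06 in wild-type graft GPI+ cells and 1.18, 1.19, 1.13 and 1.14 in wild type GPI+ cells. The wild-type graft arrays lay below both other groups with no overlap. Neither difference passed, at 0.25 ± 0.10 for knock-out graft GPI- minus wild-type graft GPI+ (adjusted p = 0.20) and -0.27 ± 0.10 for wild-type graft GPI+ minus wild type GPI+ (adjusted p = 0.250). Its dimmer probe set passed in none of the 4 comparisons (limma adjusted p = 0.368 to 0.998).

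Dpm2 passed in none of the 4 comparisons in the main fit. It had 1.46, 1.37 and 1.38 in knock-out GPI- cells, against 1.33, 1.32 and 1.33 in knock-out GPI+ cells, a log2 difference of 0.27 ± 0.11 that did not pass (limma adjusted p = 0.0737) although the groups did not overlap. It passed with cyclic loess normalization (adjusted p = 0.0314), with array weights (0.0356) and without replicate 2 of the knock-out GPI- cells (0.0453). In batch 2 the arrays lay between 1.25 and 1.32, and the differences were -0.07 between the grafts (95% confidence interval -0.28 to 0.13) and -0.10 against wild type (-0.29 to 0.10). Dpm1 and Dpm3, the catalytic and the tethering subunit of the mannose-donor synthase that Dpm2 belongs to, passed in none of the 4 comparisons. Their log2 differences on 2 and 1 probe sets ran from -0.12 to 0.17 in knock-out marrow and from -0.20 to 0.13 between the grafts.

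Pigq, which stabilises the complex, was lower in knock-out graft GPI- than in wild type GPI+ cells on the 5 brightest of its 6 tested probe sets. On the brightest it had 1.88, 1.82, 1.62 and 1.71 in knock-out graft GPI- cells, against 1.90, 1.99 and 2.0 in wild-type graft GPI+ cells and 2.16, 2.11, 2.15 and 2.23 in wild type GPI+ cells. The 3 groups stood in that order without overlap. The difference against wild type was -1.35 ± 0.21 log2, or 2.54-fold lower (limma adjusted p = 2.12e-04). The other 4 called probe sets, from the brightest of them down, fell by 1.36, 1.26, 1.21 and 1.02 log2 (adjusted p = 1.06e-04 to 0.00150).

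The step on either side of the wild-type graft was smaller and did not pass. Between the grafts the 5 probe sets differed by -0.37 to -0.69 log2 (limma adjusted p = 0.0782 to 0.425). Between wild-type graft GPI+ and wild type GPI+ cells they differed by -0.55 to -0.68 (adjusted p = 0.143 to 0.289). With only the batch 2 arrays in the fit, 4 of the 5 passed between the grafts (adjusted p = 0.0200 to 0.0351), and the same 4 passed with array weights (adjusted p = 0.0203 to 0.0281). Of all probe sets 3.99% and 4.79% passed between the grafts in these settings. With array weights 3 of the 5 also passed between wild-type graft GPI+ and wild type GPI+ cells (adjusted p = 0.0339 to 0.0493). In that setting 1.88% of all probe sets passed there, against 0.617% in the main fit. The identifiers of the 3 brightest of the 5 end in _x_at, the platform's mark for probes that can match other sequences, and those of the other 2 do not.

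In knock-out marrow Pigq varied among the GPI- arrays rather than between the groups. On the brightest probe set the values were 2.0, 2.41 and 2.15 in knock-out GPI- cells, against 2.11, 2.10 and 2.11 in knock-out GPI+ cells. Replicate 2 of the GPI- cells stood above all GPI+ arrays and replicate 1 below them. The log2 difference was 0.26, with a 95% confidence interval of -0.23 to 0.76 (limma adjusted p = 0.464).

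The 5 brightest Pigq probe sets moved with red cell genes array by array. The mean of 6 erythroid genes of 7 listed was 5.24, 6.13 and 5.50 log2 in knock-out GPI- cells, against 5.47 to 5.59 in knock-out GPI+ cells. In batch 2 it was 4.99, 4.93, 3.78 and 4.36 in knock-out graft GPI- cells, against 4.88 to 5.40 in wild-type graft GPI+ cells and 5.51 to 5.97 in wild type GPI+ cells. Among the 6 genes Hba-a1 was dim, with group means of 0.26 to 0.35 in deposited values, near or below the filter's limit. Within batch 1, replicate 2 of the knock-out GPI- cells was the highest array for both the erythroid mean and the brightest Pigq probe set. Within batch 2, replicate 3 of the knock-out graft was the lowest array for both. For the 5 probe sets the correlation with the erythroid mean was 0.93 to 0.98 over the 6 arrays of batch 1 and 0.81 to 0.98 over the 11 of batch 2. For the other 2 Pigq probe sets it was 0.46 and 0.84 in batch 1 and 0.37 and 0.35 in batch 2. Of all 32426 tested probe sets 0.262% reached 0.9 in both batches, which the dimmest of the 5 did not. With the cell cycle mean the 5 correlated at 0.22 to 0.62 in batch 1 and at 0.76 to 0.87 in batch 2. With the T and NK cell mean they correlated at -0.05 to 0.38 and at -0.69 to -0.62. The arrays of a batch share their normalization, and the groups differ in Pigq and in the erythroid mean. For the 8 probe sets of the other members the correlation with the erythroid mean ran from -0.68 to 0.37 in batch 1. In batch 2 it ran from 0.04 to 0.73, where the highest values, 0.73 and 0.68, were those of Piga.

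**Figure D4:**
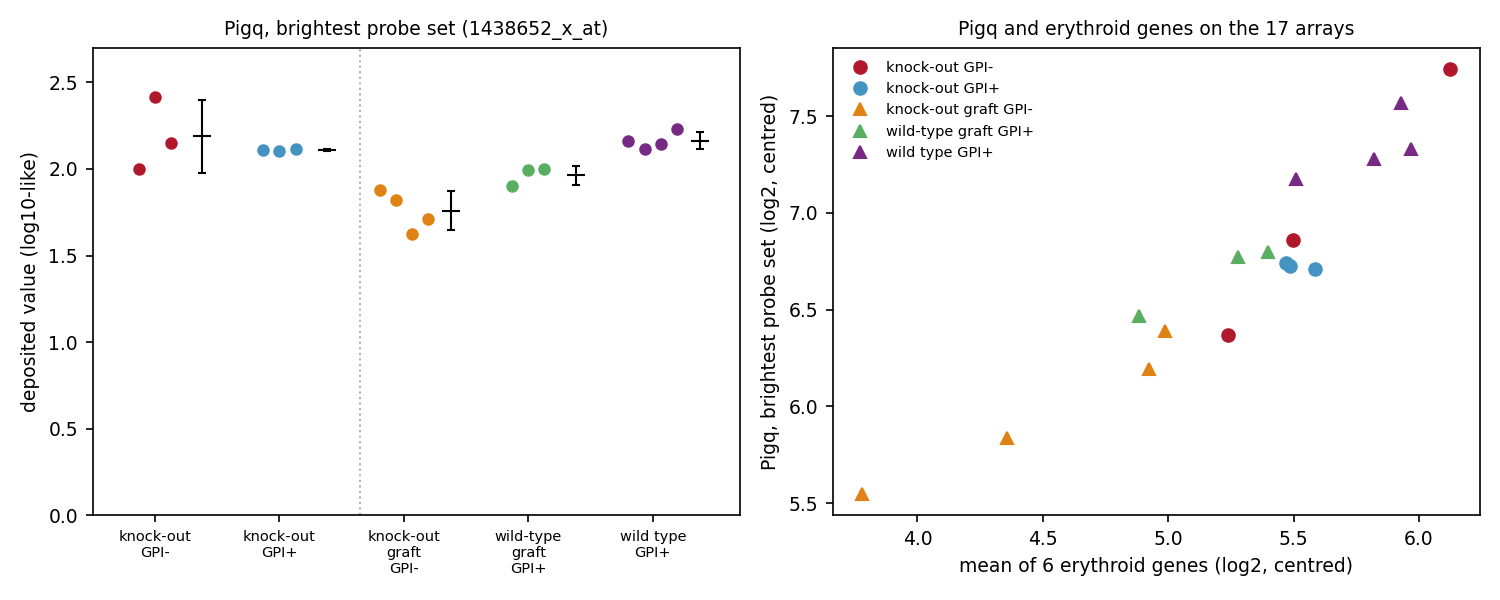
Pigq on its brightest probe set by array (left, deposited log10-like value, group means with SD as black bars) and against the mean of 6 erythroid genes (right, both axes centred log2, 1 point per array, circles for batch 1 and triangles for batch 2). In batch 2 Pigq is lowest, at 1.62, in the knock-out graft array with the lowest erythroid mean, 3.78. In batch 1 it is highest, at 2.41, in the knock-out GPI- array with the highest erythroid mean, 6.13. The batches were normalized apart, so their levels are not compared.

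The difference in Pigq between knock-out marrow and the grafts passed for 1 probe set, the third in brightness, by 0.88 ± 0.28 log2 (limma adjusted p = 0.0391). It was lost without replicate 2 of the knock-out GPI- cells (0.57, adjusted p = 0.105), without any of the 3 knock-out GPI+ arrays, without replicate 3 or 4 of the knock-out graft and without replicate 2 or 3 of the wild-type graft. The dim probe sets behaved apart. On the brighter of the 2 dimmest Pigq probe sets the values were 0.44, 0.50 and 0.31 in knock-out GPI- cells, against 0.25, 0.31 and 0.23 in knock-out GPI+ cells, with no call (limma adjusted p = 0.0536), and the dimmest, which was not tested, lay between 0.11 and 0.42 on all 17 arrays.

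Pigy, the smallest subunit, had no probe set under that symbol. RefSeq lists Pigy as a synonym of Pigyl, and in humans PIGY shares a transcript with PYURF, so the probe sets of Pigyl and Pyurf were read as well, a choice made after the annotation was seen. Pigyl had 0.94, 1.12 and 1.05 in knock-out GPI- cells, against 1.11, 1.12 and 1.11 in knock-out GPI+ cells. In batch 2 it had 0.94, 0.92, 1.00 and 0.90 in knock-out graft GPI- cells, against 1.06, 1.10 and 1.01 in wild-type graft GPI+ cells and 0.97 to 1.02 in wild type GPI+ cells. No comparison passed, with the largest difference between the grafts at -0.38 ± 0.13 (limma adjusted p = 0.108). Pyurf differed by at most 0.13 log2 in size in the 4 comparisons (adjusted p = 0.671 to 0.903).

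The later steps of the pathway changed about as often as other genes. Of 23 listed genes for mannose and ethanolamine phosphate addition, transamidation and remodelling, 22 had tested probe sets, 47 in all. In knock-out marrow 10 of the 47 passed (21.3%, against 25.4% of all probe sets), 1 higher and 9 lower in knock-out GPI- cells, with a median of -0.19 log2 against -0.02 over all. Gpaa1, a subunit of the GPI transamidase, fell by 1.27 ± 0.26 on 1 of its 3 probe sets, with a mean of 0.85 ± 0.05 (SD, n = 3) in knock-out GPI- and 1.24 ± 0.04 in knock-out GPI+ cells, and its other 2 did not pass. Pgap2, which acts in lipid remodelling of the anchor, fell on all of its 3 probe sets, by 0.66 ± 0.12 at most (limma adjusted p = 2.17e-04). Pigo, which adds ethanolamine phosphate to the third mannose, rose by 0.59 ± 0.16 on 1 of 3.

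In the grafts this list gave 1 call of 47, higher in knock-out graft GPI- cells (2.13%, against 4.1% of all). Pgap1, the inositol deacylase that acts on anchors once they are attached to protein, had 0.72, 0.78, 0.82 and 0.68 on the called probe set in knock-out graft GPI- cells, against 0.47, 0.51 and 0.49 in wild-type graft GPI+ cells and 0.64, 0.60, 0.52 and 0.56 in wild type GPI+ cells. All 4 knock-out graft arrays lay above both other groups. On this probe set it rose by 0.86 ± 0.14 against the wild-type graft (limma adjusted p = 8.10e-04) and by 0.57 ± 0.13 against wild type (adjusted p = 0.00917). The other of its 2 tested probe sets did not pass, at -0.19 between the grafts and 0.29 against wild type. In knock-out marrow the probe set called in the grafts was at 0.66 to 0.85 in GPI- and 0.64 to 0.68 in GPI+ cells, with no call. Against wild type 4 of 47 passed, 3 higher and 1 lower (8.51%, against 8.16% of all), among them Pigf, the partner of Pigo, by 0.50 ± 0.11 and a Pigo probe set by -0.45 ± 0.13. Between the GPI+ groups 0 of 47 passed with limma.

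Genes that supply the enzyme's substrates, or use UDP-N-acetylglucosamine at the same membrane, were 12 with 30 tested probe sets. In knock-out marrow 6 of 30 passed (20%, against 25.4% of all), 1 higher and 5 lower in knock-out GPI- cells, a share no higher than that of all probe sets. Gfpt1, the entry enzyme of the hexosamine pathway, fell by 0.81 ± 0.12 (limma adjusted p = 2.81e-05), with a mean of 0.51 ± 0.04 in knock-out GPI- and 0.75 ± 0.03 in knock-out GPI+ cells, and 2 of its 3 probe sets passed. Uap1, which makes UDP-N-acetylglucosamine, fell by 0.78 ± 0.18 and 0.54 ± 0.15 on 2 of 4 probe sets, both with the suffix _x_at. Gnpnat1, an acetyltransferase of the same pathway, rose by 0.41 ± 0.14 on 1 of 4. Between the grafts 0 of 30 passed with limma (4.1% of all), and against wild type 1 did (8.16% of all), a Cds2 probe set lower by 0.34 ± 0.10.

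The neighbours of Piga on the X chromosome were read because the knock-out targets this locus. Of the 5 nearest protein-coding genes on each side with a tested probe set, 5 of 10 passed in knock-out marrow, 2 higher and 3 lower in knock-out GPI- cells, where 25.4% of all probe sets passed, 12% higher and 13.4% lower. Each gene was read on its brightest tested probe set. When only the brightest probe set of each gene was tested, 29.5% passed in knock-out marrow, 7.39% between the grafts and 12.4% against wild type. Between the grafts (4.1% of all) and against wild type (8.16% of all) 1 of 10 passed, in both cases Asb11, the gene next to Piga on one side, which encodes a substrate adaptor of a ubiquitin ligase. Its values were 0.80, 0.88 and 0.84 in knock-out GPI- cells, against 0.46, 0.40 and 0.44 in knock-out GPI+ cells. In batch 2 they were 0.65, 0.56, 0.65 and 0.57 in knock-out graft GPI- cells, against 0.18, 0.24 and 0.38 in wild-type graft GPI+ cells and 0.29, 0.30, 0.19 and 0.20 in wild type GPI+ cells. Each GPI- array lay above each GPI+ array of its batch.

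Asb11 rose by 1.35 ± 0.16 log2 in knock-out GPI- cells (limma adjusted p = 2.31e-06), by 1.13 ± 0.15 between the grafts (adjusted p = 8.04e-05) and by 1.21 ± 0.14 against wild type (adjusted p = 1.16e-05). Between the GPI+ groups of batch 2 it differed by 0.08 ± 0.15 (adjusted p = 0.893). It has 1 probe set. Most GPI+ arrays lie near or below the filter's limit on it, so the size of the rise is approximate. Of the GPI+ arrays, replicates 1 and 3 of knock-out GPI+ and replicate 3 of the wild-type graft reached the limit. Vegfd, next to Piga on the other side, differed by 0.13 ± 0.17 in knock-out marrow (adjusted p = 0.645) and did not pass in the other comparisons. In knock-out marrow Bmx, a tyrosine kinase gene, Mospd2 and Ap1s2 fell by 1.41 ± 0.14, 1.37 ± 0.16 and 0.73 ± 0.15, and Gpm6b rose by 0.72 ± 0.20.

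**Figure D5:**
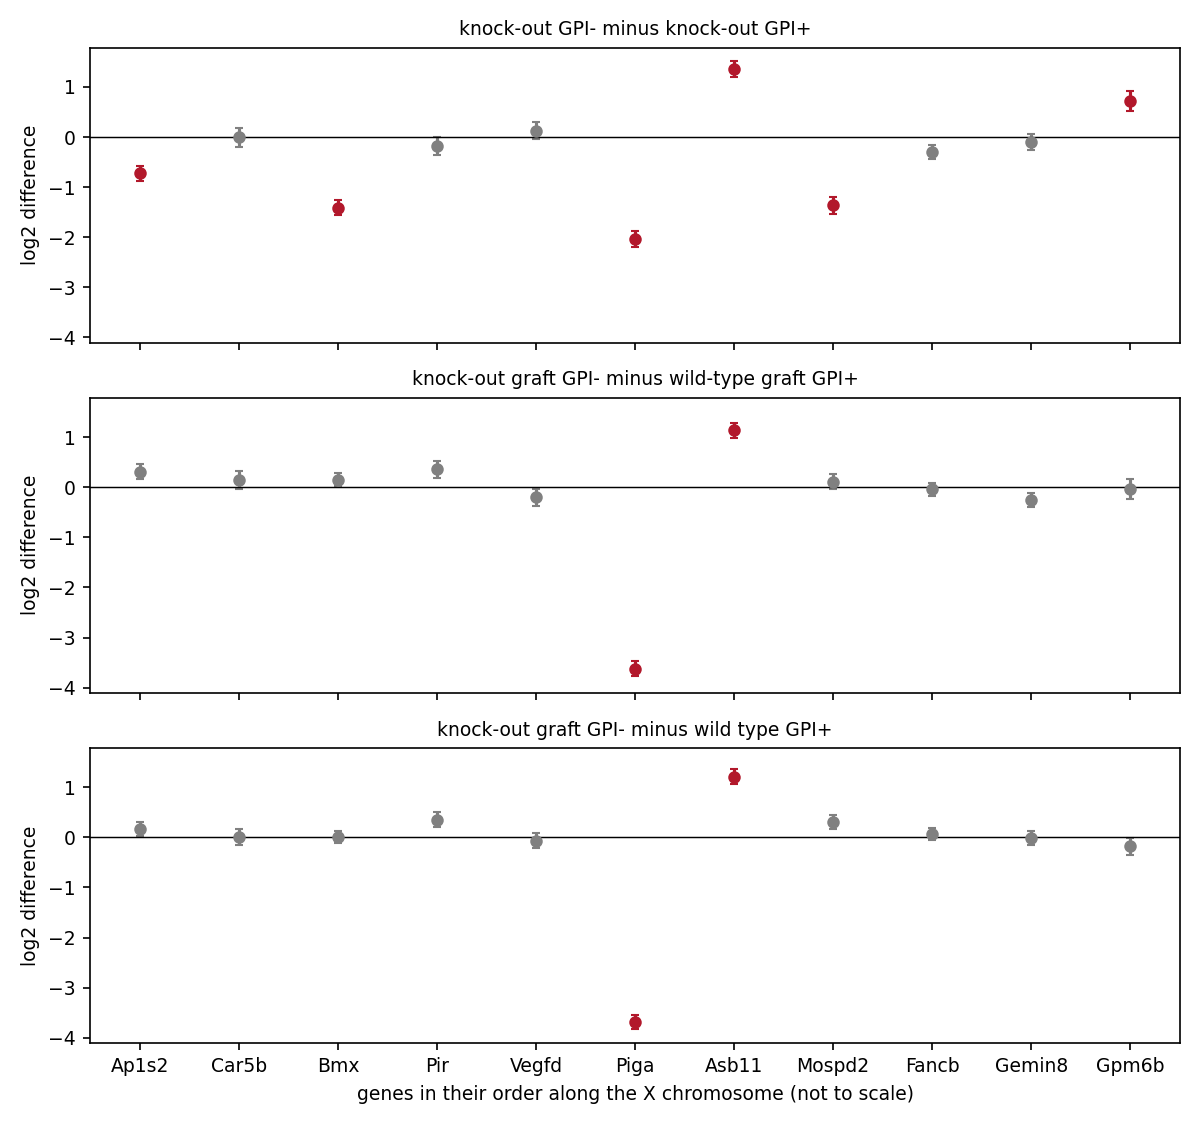
Log2 differences of Piga (brighter probe set) and the 10 nearest tested genes, in their order along the X chromosome and not to scale, in the 3 comparisons with GPI- cells. Points are the estimates of limma's fit with SE bars, and red marks an adjusted p under 0.05. Asb11 is higher by 1.35, 1.13 and 1.21 beside the low Piga in the 3 panels.

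The patterns closest to that of Piga were those of Vcam1 and of the C1q genes. By the root mean square difference of batch-centred log2 values over the 17 arrays, the 5 probe sets of other genes closest to the brighter Piga probe set were those of Vcam1, an adhesion molecule of marrow macrophages and stroma, at 0.65, and of the complement genes C1qb, C1qa, C1qc and again C1qb at 0.84 to 0.95. The median over all named tested probe sets was 1.56. A probe set that stayed level within each batch would score 1.55, the spread of Piga itself. Vcam1 differed by -1.81 log2 in knock-out marrow, -1.94 between the grafts and -2.22 against wild type, values that chose it and are given as a description. The mean of 6 marrow macrophage genes, Vcam1 and the 3 C1q genes among them, was 1.39 to 1.41 log2 in knock-out GPI- cells, against 2.55 to 2.61 in knock-out GPI+ cells, and 1.44 to 1.95 in knock-out graft GPI- cells, against 2.54 to 2.78 in wild-type graft GPI+ and 2.93 to 3.24 in wild type GPI+ cells. As 4 of the 6 are genes that this likeness picked, the mean is no separate evidence. Adgre1, the macrophage gene F4/80, went the other way in batch 2, with a mean deposited value of 1.07 in knock-out graft GPI- cells, against 0.961 in wild-type graft GPI+ and 0.972 in wild type GPI+ cells.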

How the data were processed

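RNA of sorted marrow cells was measured on 17 Affymetrix mouse arrays, from 500 nanogram per sample in a first experiment and 1 microgram in a second, per the labels' protocols, which were taken to be batches 1 and 2. The deposited values are log10-like (0 to 3.86 in batch 1 and 0 to 3.90 in batch 2). Their base was read from the hybridisation controls and is not stated. The sorted deposited values are identical on the arrays of a batch, so the authors quantile-normalized each batch apart. The software GCOS is named per the submitters' processing notes, and its role, the probe summary, the background correction and the genome build are not stated in any source used. No detection calls were used, so the number of arrays limits the precision.

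Values were converted to log2, although the plan had assumed log2 values, and arrays were centred on a common median. Of 45037 probe sets without 64 controls, 34945 had 1 gene symbol, 932 several and 9160 none. The filter kept the 32426 that reached the 40th percentile of the array on at least 3 arrays. One limma 3.58.1 fit (R 4.3.3, lmFit and eBayes with trend, 5 group means, 12 residual degrees of freedom) gave within-batch differences and the difference of 2 differences, with Benjamini-Hochberg adjustment over all 32426 at 0.05. The fit was tested on simulated data with independent probe sets and the same spread in all groups. That test does not cover the unequal spread of the groups here. The alternatives were 11 settings and leaving out each of the 17 arrays. Named were all probe sets of the members, the 2 largest called rises and falls of each list, Dpm1 and Dpm3, the 5 nearest tested genes on each side of Piga and the 5 closest patterns. Members and lists were chosen with earlier results of these data known. Same-numbered arrays did not deviate together (correlations of -0.13 to 0.09), so numbers were not taken as pairs. Promoters came from RefSeq for GRCm38.p6, used for sequence and gene order only.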

Additional observations from a re-analysis of the deposited data

Results flagged for a closer look

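On 30 sets of 4 arrays, 2 held an array far from the other 3 by Dixon's ratio at its 95% limit, where chance alone gives about 1 in 20. Pigq on its third-brightest probe set was 1.84 in replicate 2 of wild type GPI+, against 1.91 to 1.92 in the other 3, a ratio of 0.906. Pigq on the brighter of its 2 dimmest probe sets was 0.33 in replicate 1 of knock-out graft GPI-, against 0.16 to 0.19 in the other 3, a ratio of 0.859. The change in knock-out marrow differed from the change between the grafts, by the limma test of the difference itself, for 4 of the 13 tested member probe sets, where 15% of all probe sets passed. It differed by 1.58 log2 for the brighter Piga probe set (adjusted p = 8.10e-05), by 0.71 for the brighter Pigh probe set (adjusted p = 0.00594), by 1.06 for Pigp (adjusted p = 0.00133) and by 0.88 for the third-brightest Pigq probe set (adjusted p = 0.0391).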

How the results depend on the processing

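The brighter Piga probe set kept its 3 calls in each of the 11 other settings and without any 1 array, at -2.16 to -1.88 log2 in knock-out marrow, -3.75 to -3.54 between the grafts and -3.83 to -3.62 against wild type with arrays left out. No called difference changed sign, while differences with no call did, such as the brightest Pigq probe set in knock-out marrow at -0.11 to 0.58 with an array left out. The count of 2 member probe sets called between the grafts was 1 with no filter, without the intensity trend, with the replicate block, with the knock-out GPI+ arrays averaged to 1 and with the brightest probe set of each gene. Of all probe sets 2.56%, 3.52%, 3.18%, 3.0% and 7.39% passed in these settings in turn. The count was 6 with only 1 batch in the fit (3.99% of all) and with array weights (4.79%). It ran from 1 to 4 with an array left out. It was 4 without replicate 1 of the knock-out graft (4.94% of all). It was 1 without replicate 2 or 4 of the knock-out graft (2.75% and 3.03%) or replicate 2 or 3 of the wild-type graft (2.55% and 2.67%). Against wild type the count of 7 fell to 2 with the brightest probe set of each gene, which tests fewer probe sets (12.4% of them passed). Between the GPI+ groups of batch 2 the count of 0 became 3 with array weights, all of Pigq (1.88% of all probe sets passed). For the difference of differences the count of 4 was 2 with the knock-out GPI+ arrays averaged to 1 (4.56% of all). It ran from 3 to 7 with an array left out, the 7 without replicate 1 of the knock-out GPI- cells (15.7% of all). The cause of these shifts was not tested except where stated. With the replicate block, the dimmer Piga probe set lost its call between the grafts (-0.60, limma adjusted p = 0.0851). Over all probe sets, averaging the knock-out GPI+ arrays to 1 left 2764 of 8238 calls in number in knock-out marrow, 62 of 200 between the GPI+ groups and 1479 of 4852 for the difference of differences. Between the GPI+ groups the 200 became 608 with array weights, 85 without the trend, 46 with the replicate block and 132 with no filter. With an array left out they were 22 without replicate 1 of wild type, 34, 61 and 125 without replicates 1, 2 and 3 of the wild-type graft and 111 and 73 without replicates 2 and 4 of wild type. Between the grafts the 1328 became 828 and 865 without replicates 2 and 3 of the wild-type graft. With the brightest probe set of each gene, 4206, 1053, 1764, 120 and 2707 passed in knock-out marrow, between the grafts, against wild type, between the GPI+ groups and for the difference of differences. Using 1 batch gives no value for the difference of differences. Of the values of single probe sets under another setting, 29 gained a call, 21 lost one and 1122 kept their side of the threshold. Signals near the filter's limit carry no reliable size.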

Other observations

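Asb11, named after its values were seen, kept its calls in the 3 comparisons with GPI- cells in each of the 11 other settings and without any 1 array. With an array left out the log2 difference was 1.29 to 1.42 in knock-out marrow, 0.99 to 1.32 between the grafts and 1.16 to 1.28 against wild type. Between the GPI+ groups of batch 2 it was -0.10 to 0.22 with no call.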
